A study of Homo sapiens with 2 samples.

Results

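The histone genes of Ca9-22 oral squamous cell carcinoma (OSCC) cells were compared between cells carrying a control vector and cells carrying a DLEU1 vector. They were chosen by gene name, as all non-control probes whose name started with HIST1H, HIST2H, HIST3H or HIST4H (the clustered, replication-type histones) or with H2AF or H3F (mostly replacement variants). The rule gave 80 of the 43317 gene names on the array, 69 clustered and 11 H2AF or H3F, measured by 101 probes. Ca9-22 is an established OSCC line, and DLEU1 is a long noncoding RNA that the study introduced to examine its ectopic expression. Both cultures had been infected with a lentivirus, selected with blasticidin (6 mg/ml) for 2 weeks and grown in the same medium, and they differed by label in the vector alone. Each vector was represented by 1 culture and 1 Agilent array, so no value below has a replicate error and no test was possible. The vector, the culture and its density cannot be told apart.

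Histone proteins form the spool around which DNA is wrapped: H2A, H2B, H3 and H4 make up the nucleosome core, and H1 binds the linker DNA between nucleosomes. The clustered genes are short, lack introns and are transcribed mainly in S phase, when new DNA must be packaged. Their mRNA normally ends in a conserved stem-loop, bound by the protein SLBP, instead of a poly(A) tail, although several of the genes can also give polyadenylated transcripts. Replacement variants are instead made from polyadenylated mRNA throughout the cell cycle, with H2AFX known for making both kinds. The labelling kit used here (100 ng of total RNA) primes from poly(A), so for clustered genes the signal depends on how much RNA carries such a tail as well as on how much RNA there is. These quantities were not measured apart.

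The stem-loop itself lay inside 6 probes, each of a different clustered gene, against 7 of all 58201 probes (0.0120%). Their 30-base windows are shown because they hold the feature that marks a replication-type mRNA. The capitals mark the stem-loop, that is the paired arms with the loop between them.
HIST1H2AI: ggaaccaaaGGCTCTTTTCAGAGCCaccta
HIST1H2BE: aaacccaaaGGCTCTTTTCAGAGCCactca
HIST1H2BF: acccaatcccaaaGGCTCTTTTAAGAGCCa
HIST1H3H: atacccaaaGGCTCTTTTCAGAGCCaccca
HIST1H4K: ctatcaacaaaaGGCCCTTTTTAGGGCCcc
HIST2H3A: cgtatccaaaaGGCTCTTTTCAGAGCCacc
All of these probes lay below 0 in the comparison, with a median log2 difference of -2.03 (DLEU1 minus control vector) over a range from -3.17 to -0.27. By size, 4 of the 6 were at least 2-fold lower, while 9.78% of all probes detected on both arrays were that much lower and 8.98% that much higher. The 72 other detected probes of clustered genes had a median of -0.51, with 25 lower and 8 higher. Within the genes that had both kinds of probe, however, the stem-loop probe always fell less than the other. The values were -0.27 against -1.94 for HIST1H3H, -0.30 against -0.98 for HIST1H4K and -2.26 against -2.83 for HIST1H2AI. For HIST1H4K the probe at -0.98 lists 3 genes, H4C9, H4C11 and H4C12, so that comparison is not strictly within 1 gene.

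Levels are log2 processed intensities relative to the 75th percentile of each array, and a gene was called lower or higher at 2-fold or more. Of the members, 71 were detected on both arrays, 64 clustered and 7 H2AF or H3F. HIST1H1T, a testis H1, and HIST1H4G were detected with the control vector only, at least 1.17-fold and at least 1.65-fold lower with DLEU1. Neither array detected HIST1H2APS1, HIST1H2BA, HIST2H2BA, H2AFB1, H2AFB2, H2AFB3 or H2AFY2. Over all 20246 genes detected on both arrays the median difference was -0.07, with quartiles of -0.52 and 0.41. All 7 squamous epithelial markers were detected on both arrays, 5 of them at least 2-fold higher with DLEU1. Of 6 markers of other cells, CD3E, COL3A1, MLANA and PECAM1 were detected on neither array. COL1A1 went from 0.47 to 4.47 and PTPRC from -1.74 to -1.28, and their part in the results was not tested. The brightest DLEU1 probe went from 3.17 to 5.91, a difference of 2.74, against 1.38 with the mean of its detected probes and 0.54 with the dimmest.

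The clustered histone genes were shifted downward with the DLEU1 vector, while the share called higher was near that of all genes. Their median difference was -0.56, and 45 of the 64 lay below 0. Of these genes, 23 (35.9%) were at least 2-fold lower, against a background of 9.78% over all genes. A further 6 (9.38%) were at least 2-fold higher, near the background of 9.18%. Of these 6, HIST1H2AC and HIST2H2BE passed 2-fold on 1 probe each, and their other probes did not. In either direction 45.3% of the clustered genes passed 2-fold, against 19.0% of all genes. Fewer cells in S phase and less histone RNA per cell cannot be told apart in bulk RNA.

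**Figure D1:**
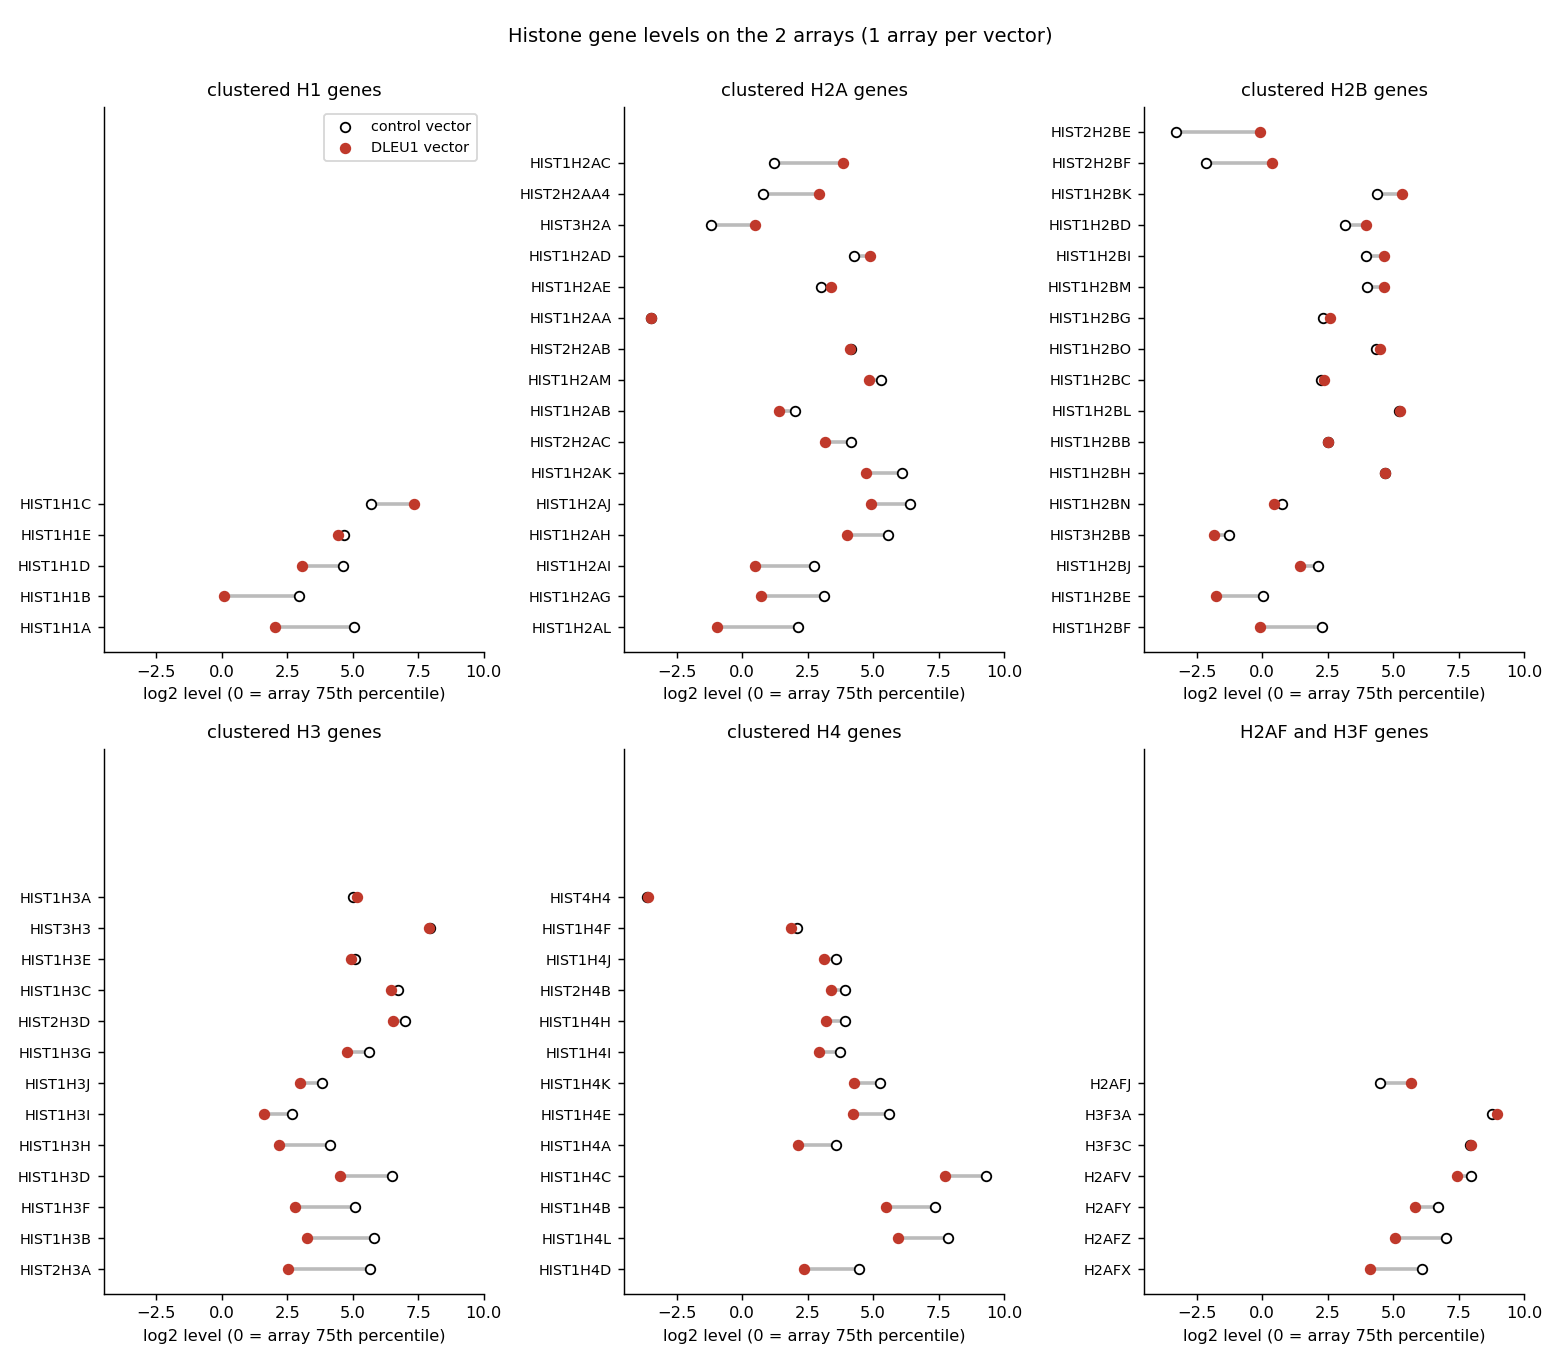
Log2 level of each histone gene detected on both arrays, relative to the 75th percentile of the array, with an open circle for the control vector and a filled red circle for the DLEU1 vector (1 array each), one panel per class. In the H3 and H4 panels the red circle is the left one for 12 of 13 genes each, whereas HIST2H2BE and HIST2H2BF moved furthest right among the H2B genes.

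H1, the linker histone, had the lowest class median, -1.56 over 5 detected genes. HIST1H1A had a level of 5.06 with the control vector and 2.03 with DLEU1, a fall of 8.12-fold. HIST1H1B went from 2.94 to 0.079, which is 7.27-fold lower. HIST1H1D, the gene at the class median, was lower by 1.56 on the log2 scale. HIST1H1C went against these genes, from 5.69 to 7.33, and was 3.12-fold higher. HIST1H1E differed by only -0.24, so the class held 3 genes that fell, 1 that rose and 1 in between.

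Of the 13 genes for core histone H3, 6 (46.2%) were at least 2-fold lower and none (0) at least 2-fold higher. The shares over all genes were 9.78% and 9.18%, and the H3 median was -0.85. HIST2H3A fell from 5.67 to 2.51 (8.97-fold). Its probe lists 2 genes, H3C14 and H3C15, and cannot tell them apart. HIST1H3B fell from 5.80 to 3.26 (5.78-fold) and HIST1H3F from 5.07 to 2.79, a difference of -2.28. HIST1H3J lay at the class median, and HIST1H3I was just past the threshold at -1.09. At the other end HIST1H3A, at 0.12, was the sole H3 gene above 0.

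The 13 genes for H4, the partner of H3 in the tetramer at the centre of the nucleosome, had a median of -0.98. Here too 6 (46.2%) were lower and none (0) higher by 2-fold, against 9.78% and 9.18% of all genes. HIST1H4D went from 4.45 to 2.38, a difference of -2.07, and its other probe differed by -1.30. HIST1H4L differed by -1.94 and -2.26 on its probes, and HIST1H4C by -1.54 and -2.22. HIST1H4K, at the class median with -0.98, fell just short of 2-fold. The probe giving this value lists 3 genes, and the other HIST1H4K probe, which lists 1, differed by -0.30. HIST4H4, which lies on chromosome 12 near H2AFJ, was at 0.031 and was the sole H4 gene above 0 by its brightest probe. Its levels, -3.61 with the control vector and -3.58 with DLEU1, lay near the lowest detected levels of -4.09 and -4.04. HIST1H4H was at -0.75 by its brightest probe, but its other probe differed by 2.19.

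H2A showed the widest spread of the clustered core histones (SD over genes 1.64), with HIST1H2AC entering by its brightest probe. Of the 16 H2A genes, 6 (37.5%) were lower and 3 (18.8%) higher, against 9.78% and 9.18% of all genes. The median was -0.56, midway between HIST1H2AB at -0.62 and HIST1H2AM at -0.49. HIST1H2AL went from 2.13 to -0.96, which is 8.50-fold lower. HIST1H2AG fell from 3.14 to 0.74 and HIST1H2AI from 2.74 to 0.48, differences of -2.40 and -2.26. For HIST1H2AG this is the value of its brighter probe, and its other probe differed by 2.07. In the other direction HIST2H2AA4 rose from 0.80 to 2.92 (4.37-fold) and HIST3H2A from -1.17 to 0.50 (3.20-fold). The brightest probe of HIST1H2AC went from 1.23 to 3.86 (6.18-fold higher), but it was chosen through its DLEU1 signal. On the control vector array another HIST1H2AC probe was the brighter, at 2.67, and this one differed by -0.60. With the mean of its probes HIST1H2AC differed by 0.75 and was not called. The probe of HIST2H2AA4 lists both H2AC18 and H2AC19, and another probe for a transcript of this gene, filed under the transcript name and so outside the rule, differed by 2.72. HIST2H2AC, at -0.997, was just outside 2-fold.

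H2B was the one clustered class with a median above 0. Of its 17 genes, 2 were lower and 2 higher (11.8% each), near the shares of all genes, 9.78% and 9.18%. The median was 0.13, that of HIST1H2BC. It ranged from -0.33 to 0.32 over the 5 other ways of scaling the arrays and turned negative under scaling to the spike-in RNA. The brightest probe of HIST2H2BE went from -3.31 to -0.085 (9.36-fold higher). It too was chosen through its DLEU1 signal, since the other HIST2H2BE probe was the brighter with the control vector, at -2.76, and differed by 0.0040. The difference of HIST2H2BE was 1.76 under normexp and 1.62 with the mean of its probes. HIST2H2BF rose from -2.13 to 0.39 (5.74-fold), with a difference of 1.71 under normexp. This rise also rests on 1 probe, since the other HIST2H2BF probe, which lies upstream, was detected on neither array. Below 2-fold but above 0 were HIST1H2BK at 0.95, HIST1H2BD at 0.79, HIST1H2BI at 0.68 and HIST1H2BM at 0.67. HIST1H2BF fell from 2.27 to -0.096 (5.17-fold) and HIST1H2BE from 0.022 to -1.78 (3.50-fold), and both were read by stem-loop probes.

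**Figure D2:**
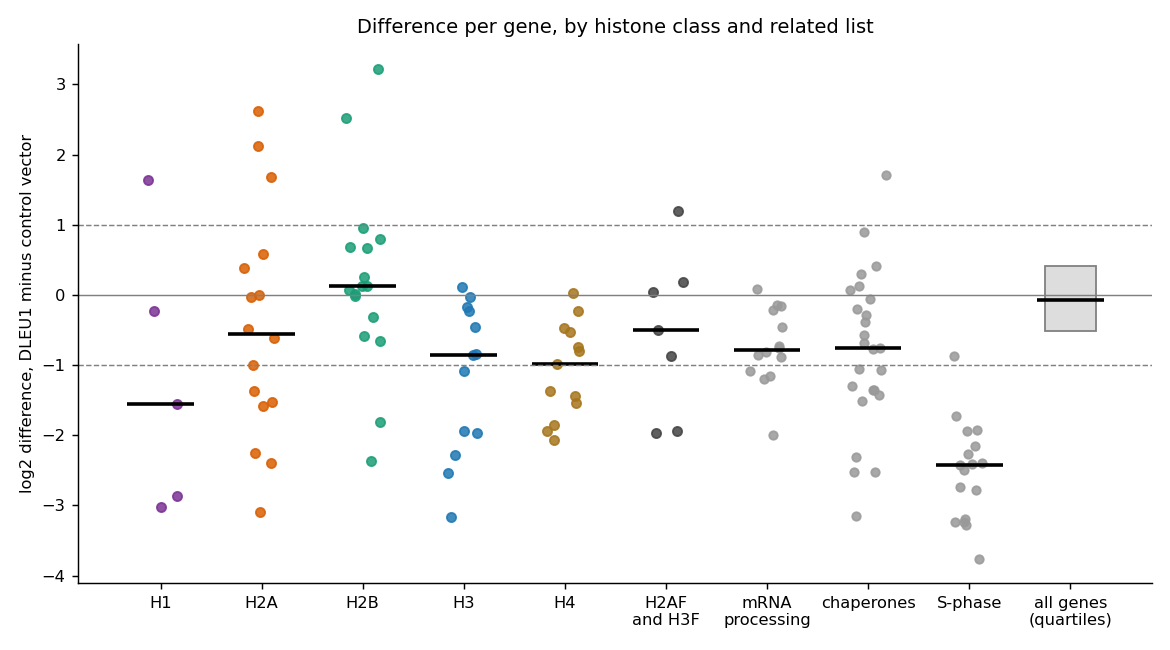
Log2 difference (DLEU1 minus control vector) of each gene detected on both arrays, by histone class and for 3 lists of related genes, with a black line at each median and dashed lines at 2-fold. The grey box gives the quartiles of all genes, -0.52 and 0.41; the H2B points centre near 0, and the S-phase genes lie lowest.

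The medians of the replacement-type and the clustered genes nearly coincided. Of the 7 detected H2AF and H3F genes, 2 (28.6%) were lower and 1 (14.3%) higher by 2-fold, against 9.78% and 9.18% of all genes. Their median was -0.50. The clustered median minus this one was -0.055. The sign of this gap depended on the choice of probe. With the mean of the detected probes of a gene in place of the brightest, the clustered median was 0.16 above the other, and with the dimmest detected probe 0.44 above it. Without H2AFX, the gap widened to -0.33.

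Among the H2A variants, H2AFX and H2AFZ fell by similar amounts. H2AFX, whose protein is phosphorylated around DNA breaks, went from 6.08 to 4.12 (3.91-fold lower). H2AFZ, a variant placed next to promoters, went from 7.02 to 5.08 (3.84-fold lower). H2AFV, which encodes a close relative of the H2AFZ product, differed by -0.50, and its other probe by -0.83. H2AFY, which encodes a large variant with an added macro domain, differed by -0.88. H2AFJ was the exception and rose from 4.48 to 5.68 (2.29-fold). This rise stayed at 2-fold under each scaling apart from the spike-in, where it was 0.74 on the log2 scale.

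The 2 detected H3F genes changed little. H3F3A, which encodes the main replacement H3, differed by 0.18, and its other probes by 0.69 and 0.56. The first value was -0.28 under spike-in scaling. Each H3F3A probe also lists H3P6 and cannot tell the genes apart, so H3F3A has no value without probes listing several genes. The probe giving 0.18 was the only detected member probe in a strip of the slide where 23.7% of lit spots were 2-fold lower, against 13.4% elsewhere. H3F3C differed by 0.042, a value that turned negative under scaling by the median, under scaling to the spike-in and under normexp background correction. A probe for H3F3B, filed under a transcript name and so outside the rule, differed by -0.17. Thus no H3F probe was called, in contrast with the 6 clustered H3 genes that fell.

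Position within the clusters was examined next. The HIST1 genes on chromosome 6 (hg19) fall into 3 segments. The first runs from 25726563 to 26285556 with 35 genes and had a median of -0.24. Of its 31 detected genes, 12 (38.7%) were lower and 2 (6.45%) higher, against 9.78% and 9.18% of all genes. The second, from 27100318 to 27115305, holds 5 genes with a median of -0.80, 2 of them (40%) lower. The third, from 27775286 to 27861647, holds 16 genes with a median of -1.03, of which 8 (50%) were lower and none (0) higher. Genes that fell and genes that did not stood next to each other in each segment.

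**Figure D3:**
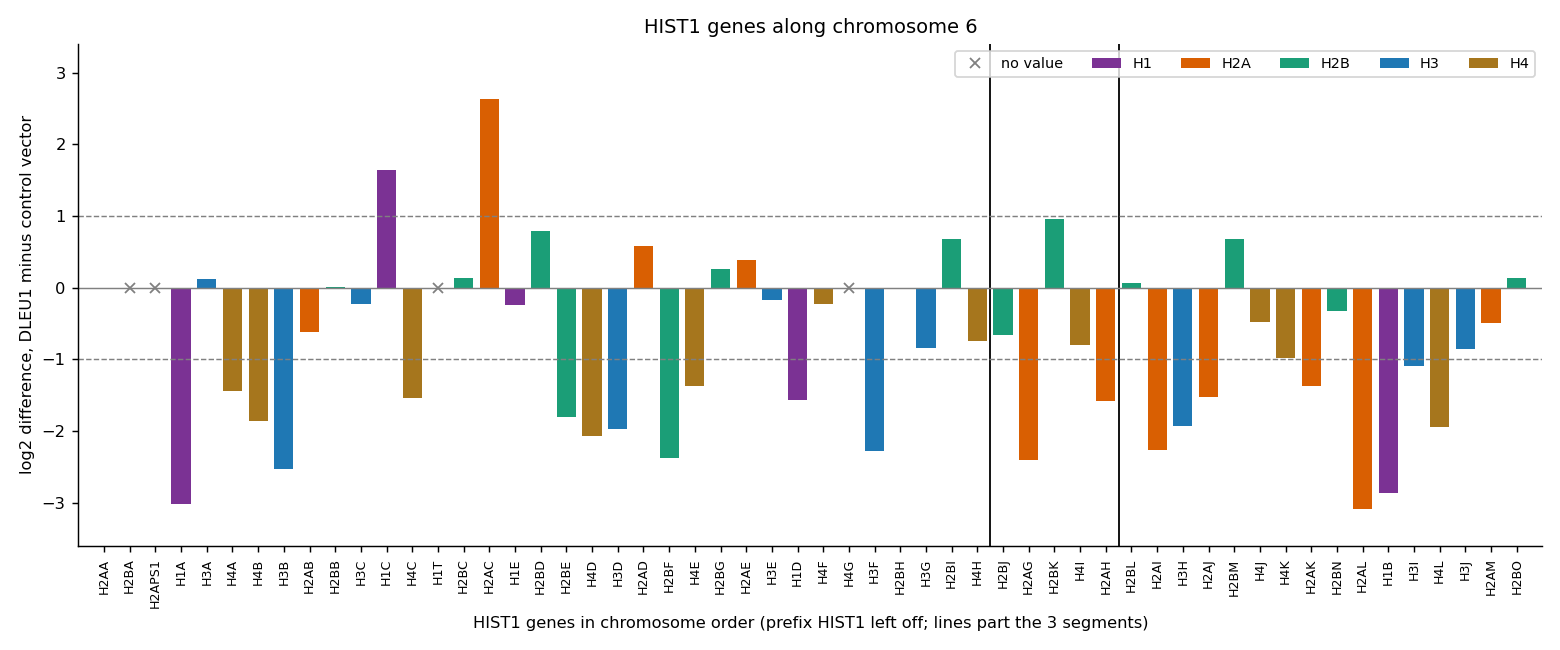
Log2 difference (DLEU1 minus control vector) of the HIST1 genes in their order along chromosome 6, coloured by class, with crosses for genes without a value, dashed lines at 2-fold and vertical lines between the 3 segments. HIST1H1C and HIST1H2AC, both in the first segment, are the 2 bars above 2-fold.

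In the clusters outside HIST1, 4 genes were called higher. Of 8 detected HIST2 genes, 3 (37.5%) were higher and 1 (12.5%) lower (median -0.24), and of 3 HIST3 genes, HIST3H2A was higher. Over all genes 9.18% were called higher and 9.78% lower. In HIST1, 22 of 52 (42.3%) were lower and 2 (3.85%) higher (median -0.77). These counts depend on the setting, since HIST2H2BE and HIST2H2BF have no value with a signal of at least 100, and with the dimmest probe HIST1H2AG (2.07) and HIST1H4H (2.19) count as higher and HIST2H2BE does not. The RefSeq length of the locus, which is long where a gene has an extended or spliced transcript beyond the short stem-loop form, also went along with the difference. The 8 detected clustered genes with a locus over 1000 bases had a median of 0.46, with 1 lower (12.5%) and 2 higher (25%). Among them the H2B genes HIST1H2BC (0.13), HIST1H2BD (0.79), HIST1H2BK (0.95), HIST2H2BE (3.23) and HIST2H2BF (2.52) were above 0. Those of other classes, HIST1H3D (-1.97), HIST1H3E (-0.17) and HIST2H4B (-0.53), were below 0. Locus length and class therefore cannot be told apart here. The 56 with a shorter locus had a median of -0.70, with 22 lower (39.3%) and 4 higher (7.14%). These counts are descriptions of 1 pair of arrays, without a test.

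Different probes of the same histone gene gave very different answers. Over 15 members with several detected probes, the SD of the difference between probes of a gene was 1.29. No member probe (0) had replicate spots. Over 282 replicated probes of the array the SD between spots of a probe was 0.080. Probes of other genes were not compared in this way. In 6 of the 15 members the probes differed by 1 or more on the log2 scale, and in 3 they had opposite signs. The first 30 bases of the probes of HIST1H2AG, HIST2H2BE and HIST1H4H are printed as examples of genes whose probes diverged, with HIST1H2AG called in both directions.
HIST1H2AG, upstream probe: tctgtactagtttgtggcagctcaagtaaa
HIST1H2AG, downstream probe: ctacggtagtgcaaataacttttggtgttg
HIST2H2BE, upstream probe: cctaaaaagggctccaagaaagccgtcacc
HIST2H2BE, downstream probe: tctcattttgttgataatttctgcatttaa
HIST1H4H, upstream probe: gttctgaaggtgttcctggagaacgtgatt
HIST1H4H, downstream probe: ttgcctagttctgtcccacagatttccaat
In HIST1H2AG, a probe that starts at 27101247 on chromosome 6 (hg19) went from 3.14 to 0.74. A probe 1043 bases downstream went from -2.85 to -0.77, a difference of 2.07. For HIST2H2BE the upstream probe differed by 0.0040, and the probe 1037 bases downstream by 3.23. For HIST1H4H the values were -0.75 upstream and 2.19 for a probe 4211 bases downstream, which belongs to the longer transcript BC010926. HIST1H2AC showed the same order, with 0.23 and -0.60 near the coding part and 2.63 for a probe 14419 bases downstream of the first. The RefSeq loci of HIST1H2AC, HIST1H2AG and HIST1H4H are 519, 493 and 409 bases long, shorter than these distances, and that of HIST2H2BE is 2224 bases long. The called rises of HIST2H2BE and HIST1H2AC therefore rest on 1 probe each, and with the dimmest probe of each gene they were 0.0040 and 0.23.

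Across the 13 clustered genes with several detected probes, 5 had probes at least 1000 bases apart. The downstream probe was the higher in all 5, by 0.66 to 4.47 on the log2 scale, and it passed 2-fold in 4. No upstream probe (0 of 5) was 2-fold higher. In the 8 genes with closer probes every probe lay below 0, and the downstream probe was the higher in 6. Over all 8, the downstream minus the upstream value ran from -1.08 to 1.66. H2AFV and H3F3A, whose probes lie 6399 and 6238 bases apart, gave -0.32 and -0.13 for the downstream minus the upstream value. The distance was examined after the values were seen.

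**Figure D4:**
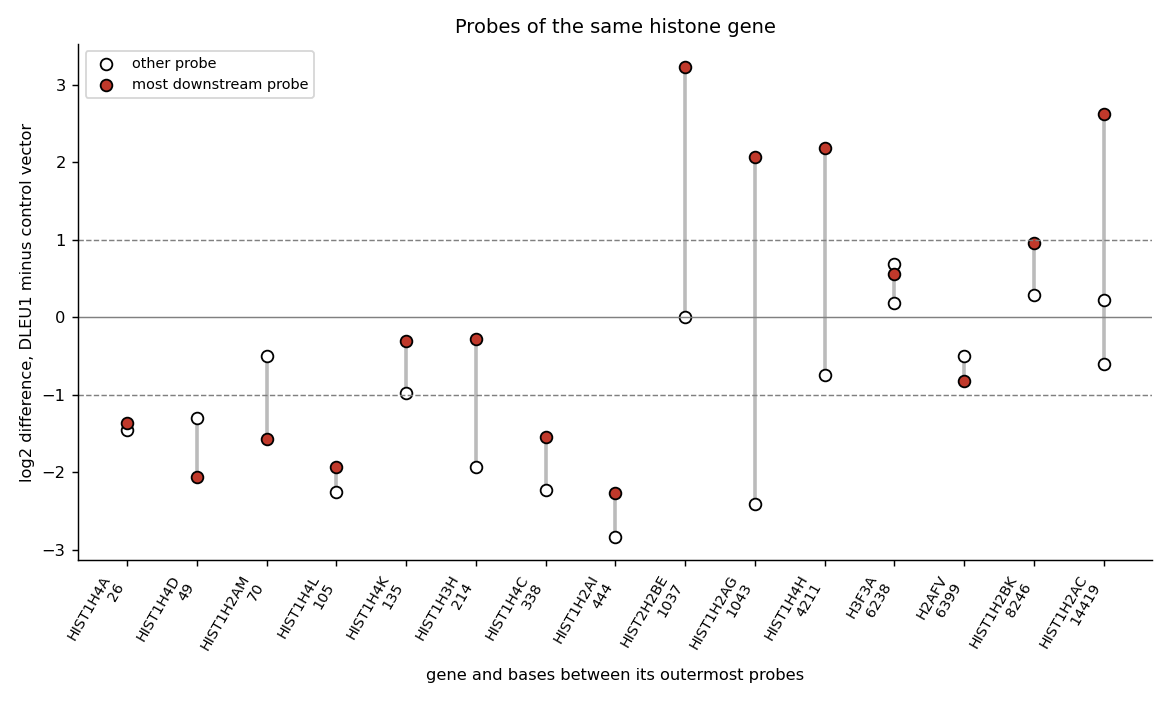
Log2 difference (DLEU1 minus control vector) of every detected probe of the 15 members with several detected probes, ordered by the bases between the outermost probes, with the most downstream probe filled red and dashed lines at 2-fold. From HIST2H2BE rightward the red points of HIST2H2BE, HIST1H2AG, HIST1H4H and HIST1H2AC lie above 2-fold, whereas all points of the 8 genes to the left lie below 0.

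Promoters were then compared for shared motifs, on RefSeq sequences (GRCh38.p14) from 250 bases before to 50 after the start. Of the members, 72 had such a sequence, 62 clustered and 10 H2AF or H3F. The octamer ATTTGCAT, on either strand, was found in 26 of the 62 clustered promoters against 1.77% of 35116 promoters. It was a feature of H2A (11 of 15) and H2B (14 of 18), with 1 of 11 for H3 and none for H1 (0 of 6), H4 (0 of 12) or the H2AF and H3F genes (0 of 10). CCAAT was found in 53 of 62, against 34.6% of all, and TATAAA in 41 of 62, against 11.5%. In each case both strands were searched, and no motif contains another. The promoters of HIST2H2BE, an H2B gene called higher, of HIST1H2BF, an H2B gene called lower, and of H2AFZ are given 5′ to 3′ with motif matches in capitals. They lie at chr1:149886633-149886932 (minus strand), chr6:26199266-26199565 (plus strand) and chr4:99950226-99950525 (minus strand).
HIST2H2BE: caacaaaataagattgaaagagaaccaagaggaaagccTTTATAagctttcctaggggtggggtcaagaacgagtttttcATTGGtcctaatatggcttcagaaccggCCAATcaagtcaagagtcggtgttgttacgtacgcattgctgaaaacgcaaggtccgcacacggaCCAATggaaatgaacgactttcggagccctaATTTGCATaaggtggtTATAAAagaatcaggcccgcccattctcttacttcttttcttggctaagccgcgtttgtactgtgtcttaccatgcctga
HIST1H2BF: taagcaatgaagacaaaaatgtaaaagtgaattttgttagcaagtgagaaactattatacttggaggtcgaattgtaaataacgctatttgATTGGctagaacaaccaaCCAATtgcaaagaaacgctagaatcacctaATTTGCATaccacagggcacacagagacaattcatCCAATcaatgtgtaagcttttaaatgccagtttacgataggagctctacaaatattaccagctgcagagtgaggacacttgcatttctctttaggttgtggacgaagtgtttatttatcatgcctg
H2AFZ: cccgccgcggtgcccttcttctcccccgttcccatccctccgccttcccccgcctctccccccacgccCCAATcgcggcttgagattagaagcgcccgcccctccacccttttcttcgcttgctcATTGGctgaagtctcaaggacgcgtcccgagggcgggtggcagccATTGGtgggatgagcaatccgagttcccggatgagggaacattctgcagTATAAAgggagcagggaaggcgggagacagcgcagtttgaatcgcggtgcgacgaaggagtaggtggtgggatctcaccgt
HIST2H2BE and HIST1H2BF thus both held the octamer and CCAAT, while TATAAA was found in HIST2H2BE and not in HIST1H2BF. Their called differences had opposite signs but were read at unlike positions. That of HIST2H2BE rests on its downstream probe, since its upstream probe differed by 0.0040, and that of HIST1H2BF on a stem-loop probe. Clustered genes with the octamer had a median difference of -0.0084 (25 genes, 6 lower and 3 higher), and those without it -0.67 (34 genes, 13 lower and 3 higher). Over all genes 9.78% were lower and 9.18% higher. The octamer goes with H2A and H2B, so motif and class cannot be told apart here. A match describes letters in the window and is not a site of binding.

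Many H2A and H2B genes share a promoter region and are transcribed away from each other. There were 11 such pairs with starts within 1000 bases, and in 10 both genes were detected. Their members often differed, and the genes of 6 pairs were on opposite sides of 0. This count includes values near 0, such as HIST1H2BL at 0.072 and HIST1H2BO at 0.13, and was not repeated under other settings. The H2A gene was the lower in 6 pairs, with a median H2A minus H2B difference of -0.84. HIST1H2AI was at -2.26 and its neighbour HIST1H2BL at 0.072. HIST1H2AJ was at -1.52 and HIST1H2BM at 0.67. The reverse was seen for HIST1H2AD at 0.59 and HIST1H2BF at -2.37. In 4 pairs the H2A gene was 2-fold lower and the H2B gene was not. The pair of HIST2H2AC (-0.997) and HIST2H2BE (3.23) differed most, but rests on the downstream probe of HIST2H2BE.

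Genes that make, handle or load histones were examined beside the members. Of 14 detected genes for histone mRNA transcription and processing, 4 (28.6%) were lower and none (0) higher. The shares over all genes were 9.78% and 9.18%, and the median of the list was -0.78. SLBP, which binds the stem-loop, went from 5.16 to 3.17 (3.98-fold lower), and its change was the largest of the list. CSTF2, a cleavage factor, differed by -1.20 and ERI1, an exonuclease that trims the histone mRNA end, by -1.16. LSM10, a component of the U7 particle, was lower by 1.09 on the log2 scale. NPAT, the coactivator of clustered histone genes, differed by -0.75. The highest values were those of POU2F1, an octamer-binding factor, at -0.16, SYMPK at -0.15 and UPF1 at 0.079. SYMPK turned positive under quantile normalization and loess, and UPF1 negative under median and spike-in scaling. CPSF2 was detected on neither array.

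Histone chaperones escort histones to DNA. Of 25 detected, 11 (44%) were lower and 1 (4%) higher, against 9.78% and 9.18% of all genes. Their median was -0.76. ASF1B, which hands over H3 and H4, went from 4.73 to 1.58 (8.86-fold lower). CHAF1A and CHAF1B, subunits of the assembly factor that acts behind the replication fork, differed by -2.52 and -2.31. Under the main processing, chaperones that deposit the replacement H3 outside S phase were not called, apart from UBN2. HIRA differed by -0.39, DAXX by -0.57 and ATRX by 0.90. ATRX passed 2-fold under scaling by detected probes (1.01) and under loess (1.03), and was at 0.21 with its dimmest probe. UBN2, a partner of HIRA, rose by 1.71 on the log2 scale. NAP1L4 was at 0.41, and at -0.049 under spike-in scaling and -0.14 with its dimmest probe. HJURP fell by 2.52 on that scale, and CENPA, the centromeric H3 that it loads, fell by 2.98.

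The S-phase genes were lower as a list, 16 of 17 by 2-fold against 9.78% of all genes, with a median of -2.42. CDC45 differed by -3.76, GINS2 by -3.28 and RRM2 by -3.24, while MCM6 was at -1.92, CDK2 at -1.73 and CCNE1 at -0.87. This list moved with the clustered histones, and its part in their difference was not tested. Among histone genes outside the name rule, the linker histone H1F0, which is associated with cells that have stopped dividing, was at 1.01, H1FX at 0.85 and H1FNT at 0.39. H1FNT was at -0.069 under spike-in scaling. HILS1 was detected with DLEU1 only, and H1FOO, H2BFM and H2BFWT on neither array. H1F0 was thus on the side of HIST1H1C and opposite to HIST1H1A and HIST1H1B.

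**Figure D5:**
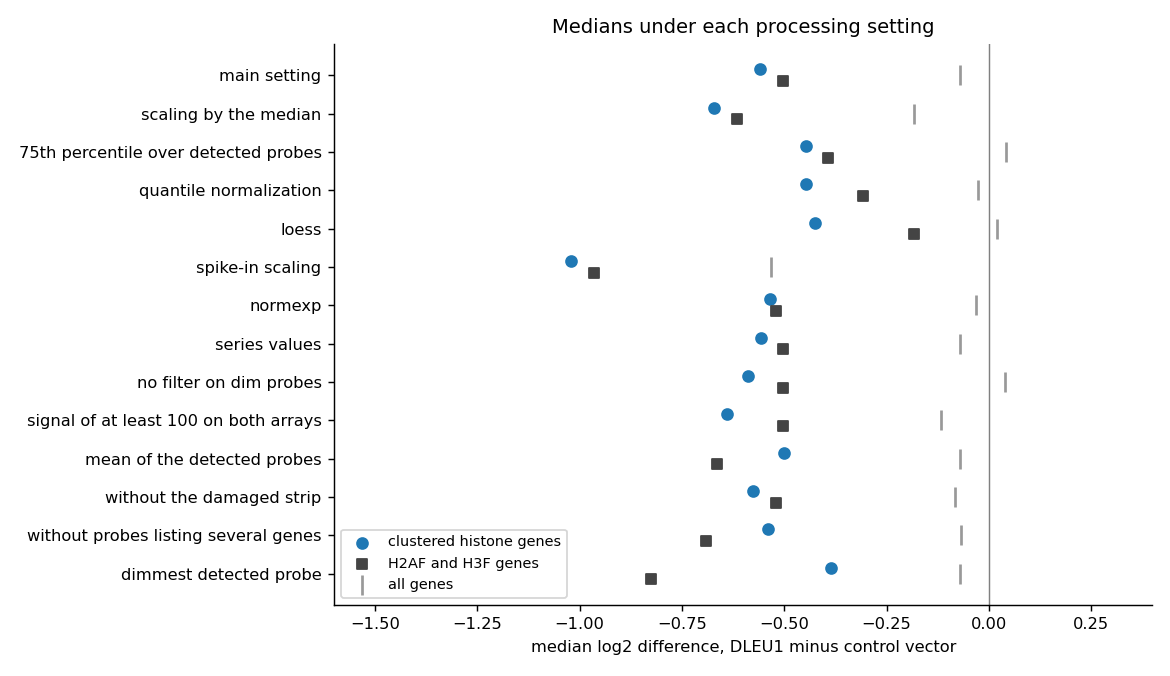
Median log2 difference (DLEU1 minus control vector) of clustered histone genes (blue circles), of H2AF and H3F genes (dark squares) and of all genes (grey bars) under each processing setting. Both histone medians stay below that of all genes in every setting shown, between -1.02 and -0.38 for the clustered genes, while their order changes with the mean of the probes, without probes listing several genes and with the dimmest probe.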

How the data were processed

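Cy3-labelled RNA of 1 culture per vector was read on an Agilent 1-colour array, 1 array for each. The deposited intensity values were produced by the authors with Agilent Feature Extraction (10.7 per the labels, 10.7.3.1 per the file headers), which corrects background, and the probes were placed on hg19. Neither array had been scaled to the other. The authors' series values were the same intensities, rounded (within 0.497%), and served as an alternative.

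Control spots and outlier-marked spots were left out, the log2 processed signal was averaged over spots of a probe, and the 75th percentile of the array (7.92 for control, 7.88 for DLEU1) was subtracted. A probe was detected where most of its spots were well above background (47.6% and 48.1% of probes). Each gene took its brightest probe detected on both arrays. For probes seen on a single array, bounds used the array's lowest detected level, or the probe's own dim level where higher. Changes were called at 2-fold. No member spot was saturated or outlier-marked (0 of 101 probes). With 1 array per group, their number limits the precision, and differences are given without tests or replicate errors.

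Current names came from RefSeq, 79 by accession and 1 by older symbol, and 2 members are pseudogenes. Of the member probes, 11 list more than 1 gene. Named were the H2AF and H3F genes, the 10 largest falls, all rises of 2-fold, the gene nearest each class median and the 3 extremes of each related list at either end. Other genes named were chosen after their values were seen. Members, lists and rules were chosen with earlier results of these data known.

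Alternatives were scaling by the median, by the spike-in, by loess (span 0.3), by quantiles and over detected probes, normexp (offset 50, limma 3.58.1 in R 4.3.3), no filter, a minimum signal of 100, averaging a gene's probes, thresholds of 1.5-fold and 3-fold, and leaving out H2AFX. Leaving out the damaged strip, leaving out probes listing several genes and using the dimmest probe were added after seeing the data. The remaining steps used Python 3.11.15 with pandas 2.3.3, numpy 2.4.6 and statsmodels 0.14.6, and were tested on simulated data.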

Additional observations from a re-analysis of the deposited data

How the results depend on the processing

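The clustered median was below 0 under every alternative run. It was -0.67 under median scaling, -0.45 under scaling by detected probes and under quantile normalization, -0.42 under loess, -1.02 under spike-in scaling, -0.64 with a signal of at least 100 and -0.38 with the dimmest probe. In the same order, the median of the H2AF and H3F genes was -0.62, -0.39, -0.31, -0.18 and -0.97 under the 5 scalings. It was -0.66 with the mean of probes, -0.23 without H2AFX, -0.69 without probes listing several genes and -0.83 with the dimmest probe. The clustered median minus the other was -0.14 under quantile normalization and with a signal of at least 100, -0.24 under loess and -0.33 without H2AFX. It was 0.16 with the mean of probes, 0.15 without probes listing several genes and 0.44 with the dimmest probe. Counts of clustered genes were 11 higher at 1.5-fold and 15 lower at 3-fold. Of the H2AF and H3F genes, 4 were lower and 2 higher with no filter on dim probes, 1 was lower without H2AFX, and 0 were higher under spike-in scaling or at 3-fold. HIST1H2AG turned from -2.40 to 2.07 with the dimmest probe, its downstream one. Over all other values of the named genes, 407 moved by less than the SD between spots (0.080) and 300 by more. Except where a setting's construction shows it (fewer genes, another probe), the cause was not tested. The alternative that matches probe sequences to transcripts was not run, and leaving out probes that list several genes took its place. No paired analysis was possible because each group had 1 array, and leaving out a replicate was not possible for the same reason. The spike-in RNA differed by 0.42 between the arrays over 8 probes, which sets the shift under that scaling. The median of all genes was then -0.53, and -0.18 under median scaling, so histone values there are best read relative to it. Dim probes such as those of HIST2H2BE, near the lowest detected level of -4.09 (control vector), have the least certain folds.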
